A study of Homo sapiens with 2 samples.

Results

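Tyrosine is broken down in 5 enzymatic steps, and the 5 genes of these steps, TAT, HPD, HGD, GSTZ1 and FAH, were followed here through every probe set on the array that is annotated to exactly 1 of them. That gave 11 probe sets out of 41091 with a single gene symbol, and 5 genes out of 19775. A probe set is the group of short oligonucleotides that reports a transcript on an Affymetrix Human Genome U133 Plus 2.0 array. HPD drew attention to this pathway because it had the lowest ratio between the arrays among brighter genes, so its values and those of the other 4 enzymes are given as a description, with no test.

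The arrays compared 1 culture of Seg-1 cells that received an siRNA against FGF-AS, an RNA transcribed antisense to the FGF2 gene, with 1 culture that received a negative control siRNA without homology to known genes. Both cultures were lipid-transfected and harvested 72 hours later, and the protocol gives siRNA concentrations between 25 and 200 nM without assigning one to each array. Seg-1 was long regarded as an esophageal adenocarcinoma line and is, per the labels' protocols, the lung line H460. Each group holds 1 array, so no difference could be set against variation between cultures, and no p-value is given.

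In liver and kidney, where the pathway is best known, TAT (tyrosine aminotransferase) removes the amino group of tyrosine and HPD (hydroxyphenylpyruvate dioxygenase) turns the resulting keto acid into homogentisate. HGD (homogentisate dioxygenase) then opens the aromatic ring, GSTZ1 (maleylacetoacetate isomerase, a zeta-class glutathione transferase) isomerises the product, and FAH (fumarylacetoacetate hydrolase) splits it into fumarate and acetoacetate. Inherited loss of FAH, TAT or HPD causes different forms of tyrosinemia, loss of HGD causes alkaptonuria, and the drug nitisinone blocks HPD.

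The start regions of the enzyme genes with the lowest ratios are shown first, because they show that HPD has 2 annotated starts of different composition. Each window runs from 250 bases before to 50 bases after an annotated start, is written 5' to 3' on the gene's strand, and comes from RefSeq (GRCh38.p14). Windows were listed for 3 of the 5 genes. Capitals mark every match, on either strand, to GGGCGG (a GC box) or TGTTCT (the core of a glucocorticoid receptor site). The windows are HPD upstream start (chr12:121888562-121888861, minus strand), HPD downstream start (chr12:121858810-121859109, minus strand) and GSTZ1 (chr14:77320786-77321085, plus strand).
HPD upstream start: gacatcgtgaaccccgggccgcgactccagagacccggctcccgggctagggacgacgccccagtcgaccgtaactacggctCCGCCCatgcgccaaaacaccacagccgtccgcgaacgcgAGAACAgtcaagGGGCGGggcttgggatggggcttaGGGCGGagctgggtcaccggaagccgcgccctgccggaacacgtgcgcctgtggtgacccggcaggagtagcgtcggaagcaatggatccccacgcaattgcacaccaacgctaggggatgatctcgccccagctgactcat
HPD downstream start: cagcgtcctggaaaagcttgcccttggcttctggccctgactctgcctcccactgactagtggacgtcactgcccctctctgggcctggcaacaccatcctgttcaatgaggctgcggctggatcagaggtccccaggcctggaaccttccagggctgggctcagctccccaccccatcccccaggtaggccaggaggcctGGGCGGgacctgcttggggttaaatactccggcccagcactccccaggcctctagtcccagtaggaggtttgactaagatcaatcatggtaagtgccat
GSTZ1: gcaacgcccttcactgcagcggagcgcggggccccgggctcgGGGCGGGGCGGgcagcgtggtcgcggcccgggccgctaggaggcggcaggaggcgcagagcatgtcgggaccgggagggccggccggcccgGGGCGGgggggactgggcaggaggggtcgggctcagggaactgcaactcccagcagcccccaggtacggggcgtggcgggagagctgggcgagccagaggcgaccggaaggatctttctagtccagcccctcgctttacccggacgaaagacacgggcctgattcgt

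The HPD starts differed in CpG content. The upstream window held 32 CpG dinucleotides, an observed over expected ratio of 0.96, and 87.7% of 34943 RefSeq windows of 300 bases had a lower ratio. The downstream window held 5 CpG dinucleotides, a ratio of 0.18, and 19.3% of windows had a lower one. GSTZ1 had a ratio of 0.82 with 33 CpG dinucleotides, and the overlapping FAH windows (chr15:80152539-80152838 and chr15:80152749-80153048, plus strand) had 0.59 and 0.61. GC boxes numbered 3 in the upstream HPD window, 1 in the downstream one, 3 for GSTZ1, and 8 and 7 in the FAH windows, where 44.9% of all windows hold at least 1. TGTTCT matched once in the upstream HPD window and in no other of these windows, and 14.8% of all windows hold it. No match was found in these windows to the letters CCAAT, which 34.6% of all windows hold on either strand. The same was true of the TATA box letters TATAAA, which 11.6% of windows hold, and of the letters GTTAAT, part of the site of a liver-enriched homeobox factor, with 6.90%. The C/EBP site TTGCGCAA, held by 0.152% of windows, was not found either. No matches of different motifs overlapped in these windows. The arrays do not tell which HPD start was in use.

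Array signals are given as deposited, in intensity units on a linear scale. The median signal over all probe sets other than controls was 23.1 on the FGF-AS siRNA array and 25.5 on the control siRNA array, and the highest signal was 20791.3 on the FGF-AS siRNA array and 21359.6 on the control array. A gene was represented by the probe set with the highest mean signal over the arrays. It counted as measured where this mean reached 23.9, the median of all probe sets. All 5 enzymes passed this minimum, which 12352 genes did. HPD, GSTZ1 and FAH also passed a stricter minimum of 145.2, the 75th percentile, with 7719 genes in all. Ratios are on the scale log2(signal + 6.1), FGF-AS siRNA over control siRNA, and understate changes of dim probe sets. The only error available was the SD between the log2 ratios of probe sets of the same gene. It was 0.36 over probe sets past the stricter minimum, from 3050 genes. Over probe sets between the minima it was 0.58, from 2365 genes, some of which also have a brighter probe set. NUDT6, the gene that encodes FGF-AS, read 104.5 with FGF-AS siRNA and 376.9 with control siRNA on its brighter probe set. The other read 77.8 in FGF-AS siRNA cells and 267 in control siRNA cells.

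TAT, the first step, was dim on both arrays. Its brightest probe set (206916_x_at) read 35.7 with FGF-AS siRNA and 40.3 with control siRNA, a log2 ratio of -0.15. This difference was smaller than the probe set SD of 0.58. The suffix _x_at marks a probe set that can cross-hybridise with other transcripts. The remaining TAT probe sets lay under the minimum. One of them (1555189_a_at) read 13.7 in FGF-AS siRNA cells and 13 in control siRNA cells, and the other (214413_at) read 5.8 in FGF-AS siRNA cells and 13.7 in control siRNA cells. TAT was thus low throughout, and its difference between the arrays was not resolved.

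HPD, the second step, had the largest difference of the pathway. Its only probe set (206024_at) read 65.9 with FGF-AS siRNA and 738.8 with control siRNA. The signal with FGF-AS siRNA was 8.92% of that with control siRNA, which is 11.2-fold lower as deposited. On the scale with the offset of 6.1, the log2 ratio was -3.37, or 10.3-fold lower. HPD thus had a signal higher than 66.4% of probe sets on the FGF-AS siRNA array and higher than 91.8% on the control siRNA array. It was the lowest of all 12352 measured genes, which is why HPD was chosen. The next lowest measured gene was ADAM33, a metalloprotease gene, at -3.08, with 12.6 in FGF-AS siRNA cells, under the minimum, and 152.3 in control siRNA cells. At the stricter minimum the next lowest was CBX5, which encodes a heterochromatin protein, at -2.35. HPD passed the stricter minimum through the control siRNA array. The signal with FGF-AS siRNA remained above the signal minimum. In bulk RNA, fewer cells with HPD transcripts and fewer transcripts per cell cannot be told apart. HPD has no other probe set that could show whether its ratio holds across the transcript.

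HGD, the third step, was dim, and its probe sets differed among themselves. The brightest (205221_at) read 53.7 with FGF-AS siRNA and 69.5 with control siRNA, a log2 ratio of -0.34 and smaller than the SD of 0.58. A nearly equally bright one (214308_s_at) read 34.9 with FGF-AS siRNA and 87.2 with control siRNA, a log2 ratio of -1.19. The gap between them was 0.85. Among 1369 genes of this brightness with several measured probe sets, the median gap was 0.46, and 77.1% had a smaller one. The other HGD probe sets were under the minimum and went opposite ways. With FGF-AS siRNA 237029_at read 15.1, against 5 with control siRNA, and 214307_at read 5.3, against 13.4 with control siRNA. Both measured HGD probe sets thus read lower with FGF-AS siRNA, the brightest by less than the SD. The difference of HGD between the arrays was not resolved.

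GSTZ1, the fourth step, read lower with FGF-AS siRNA. Its only probe set (209531_at) read 175.1 with FGF-AS siRNA and 336.7 with control siRNA. The signal with FGF-AS siRNA was 52.0% of that with control siRNA, and on the scale with the offset the log2 ratio of -0.92 (1.89-fold lower) was 2.57 times the probe set SD. Among the 7719 brighter genes its ratio was the 106th from the bottom, and it stayed short of 2-fold.

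FAH, the last step, had 2 measured probe sets, and both read higher with FGF-AS siRNA. The brighter one (202862_at) read 670.8 with FGF-AS siRNA and 518.8 with control siRNA, a log2 ratio of 0.37 (1.29-fold higher). This was about the size of the probe set SD of 0.36, and 86.0% of brighter genes had a lower ratio. The dimmer one (236481_at) read 66.8 with FGF-AS siRNA and 28 with control siRNA, a log2 ratio of 1.10 (2.14-fold higher). The gap of 0.73 between these ratios was larger than in 84.8% of 4786 brighter genes with several measured probe sets, whose median gap was 0.28. The direction of FAH was thus shared by its probe sets and the size was not.

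**Figure D1:**
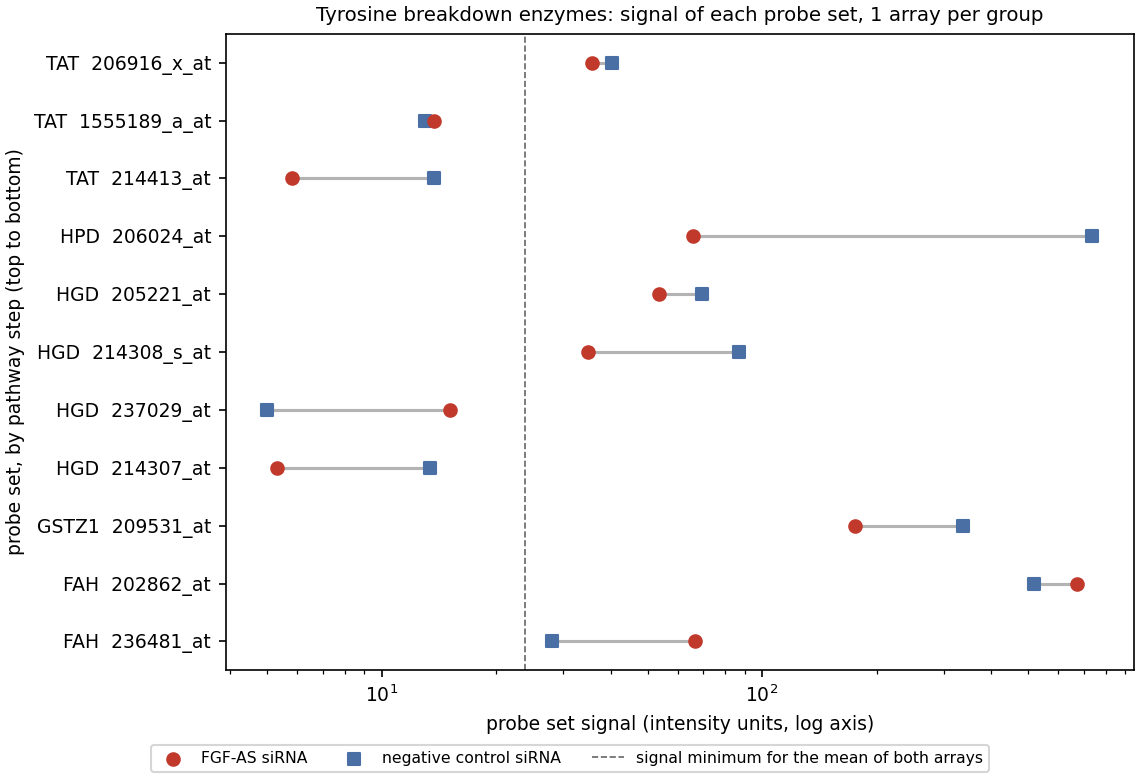
Signal (intensity units, log axis) of the 11 probe sets of the tyrosine breakdown enzymes, from the first step (top) to the last (bottom), with FGF-AS siRNA (circles) and negative control siRNA (squares), 1 array each, joined by a line. HPD has the longest line among probe sets to the right of the signal minimum (dashed), at 65.9 against 738.8, and both FAH probe sets have the circle to the right of the square.

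Set side by side, the log2 ratios ran in the order HPD (-3.37), GSTZ1 (-0.92), HGD (-0.34), TAT (-0.15) and FAH (0.37), which is not the order of the steps. HPD, chosen for its ratio, stood 2.45 below GSTZ1. The other neighbours in this order differed by less than the SD of a difference between such probe sets: the gaps were 0.58 between GSTZ1 and HGD (SD 0.68), 0.19 between HGD and TAT (SD 0.82) and 0.52 between TAT and FAH (SD 0.68). That SD holds no variation between cultures. HPD was the brightest of the 5 enzymes on the control siRNA array and FAH on the FGF-AS siRNA array, but probe sets bind with different strength, so signals of different genes do not rank their transcripts.

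At the gene level 1 of the 5 enzymes, HPD, passed 2-fold in the lower direction, against 2.72% of measured genes, and 0 of 5 did in the higher direction, against 2.05%. Among brighter genes, 1.11% passed 2-fold lower and 0.985% higher, and HPD was the only 1 of the 3 enzymes in that class to do so. Among dimmer genes the shares were 5.4% and 3.82%, and neither HGD nor TAT passed on its brightest probe set. HPD was chosen for this ratio, so nothing is read from that count. Of the 7 measured probe sets, 2 were at least 2-fold lower (HPD and the second of HGD), against 5.33% of 23222 measured probe sets, and 1 was at least 2-fold higher (the second of FAH), against 1.94%. Probe sets that are not the brightest of their gene passed 2-fold downwards in 8.3% and upwards in 1.81% of 10870 cases. In all, 4 of the 5 enzymes had a ratio below 0, as had 51.8% of measured genes. The median of the 5 was -0.34 against -0.02 over measured genes. Both the count and the median include HPD, chosen for its ratio, and TAT and HGD differed by less than the probe set SD. Nothing is read from either value.

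**Figure D2:**
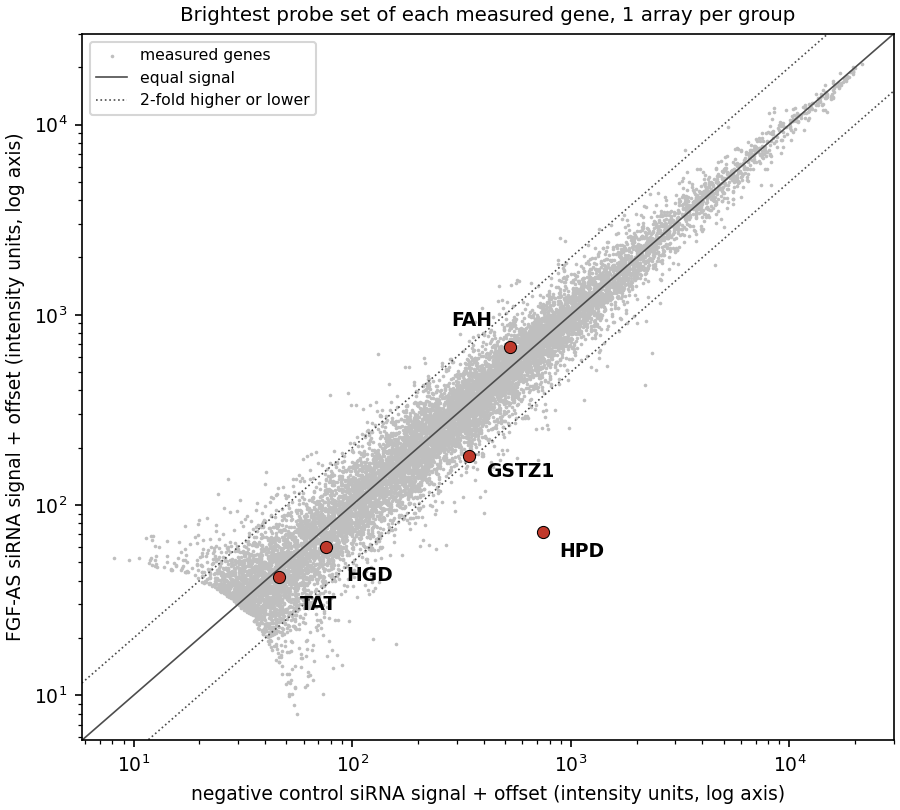
Signal plus an offset of 6.1 on the FGF-AS siRNA array (vertical, log axis) against the negative control siRNA array (horizontal, log axis) for 12352 measured genes (grey), with the 5 enzymes in red. HPD lies below the lower 2-fold line (dotted), 1 of 336 genes at or past it, while TAT, HGD, GSTZ1 and FAH lie between the dotted lines.

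Over 2 arrays, the genes whose pair of signals lay nearest to that of HPD were GLP2R, COXFA4L3 and NUDT6, by Euclidean distance on the log2 scale. GLP2R, which encodes a glucagon-like peptide receptor, read 84.9 with FGF-AS siRNA and 393.8 with control siRNA (distance 0.96). COXFA4L3 read 111.9 in FGF-AS siRNA cells and 400.7 in control siRNA cells (distance 1.13), and NUDT6, the siRNA target, lay at a distance of 1.14. HPD had the lowest ratio of all measured genes, so none of the 3 could reach it. The likeness rests on 1 pair of values per gene.

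Genes around the pathway lay above and below 0 in equal number. Over 4 lists of genes that supply tyrosine, use it otherwise or lie downstream of its products, 24 genes were measured. Of these, 12 had a ratio above 0 and 12 below. None of the 24 passed 2-fold, where 2.72% of measured genes did so lower and 2.05% higher, so this count is near the share over all genes. Their median was -0.04, against -0.02 over measured genes. Over all genes, 5946 of 12352 measured ones lay above 0 and 6398 below, and each list count here and below stands beside these and was not tested. Tetrahydrobiopterin is the cofactor of the hydroxylation that makes tyrosine from phenylalanine. Of 7 measured genes of its supply and regulation, 6 were above 0 with a median of 0.18. Among the 6, PCBD1 and SPR lay at 0.03, and GCHFR (0.66) encodes a regulator rather than an enzyme of the supply. GCH1, the first enzyme of tetrahydrobiopterin synthesis, was furthest from 0 in that list, with 703.4 in FGF-AS siRNA cells and 422 in control siRNA cells (log2 ratio 0.73). The other aminotransferases and oxidases that act on aromatic amino acids had 2 of 5 above 0 and a median of -0.14. KYAT1, a kynurenine aminotransferase, was the furthest at -0.44 (FGF-AS siRNA 149.2, control siRNA 204.2). IL4I1, a secreted oxidase of aromatic amino acids, was under the minimum (FGF-AS siRNA 2.3, control siRNA 4.5).

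Other uses of tyrosine had 4 measured genes, 1 of them above 0, with a median of -0.30. DDC, which makes dopamine from L-DOPA, was dim at 20.7 with FGF-AS siRNA and 36.9 with control siRNA. It reached the minimum with control siRNA only. Genes downstream of fumarate and acetoacetate had 3 of 8 above 0 and a median of -0.14. The 8 measured genes hold no enzyme that acts on fumarate itself. OXCT1, which activates acetoacetate for use as fuel, was the furthest at 0.56 (FGF-AS siRNA 618.2, control siRNA 417.2). Relatives of the enzymes by sequence or fold had 6 of 11 above 0 and a median of 0.04, and again none passed 2-fold. HPDL, the paralogue of HPD, read 191.6 with FGF-AS siRNA and 145.2 with control siRNA, a log2 ratio of 0.39 and opposite in sign to HPD. CLIC4, a chloride intracellular channel gene of the glutathione transferase fold, was the furthest at 0.73 on its brightest probe set and gave -0.74 and -0.56 on the others.

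Breakdown pathways of other amino acids were examined for comparison. Of 20 measured genes of branched-chain amino acid breakdown, 15 were below 0 with a median of -0.12. Over all measured genes, 51.8% were below 0 with a median of -0.02, and the difference was not tested. BCKDHB, a subunit of the branched-chain keto acid dehydrogenase, was the furthest at -0.95 (414.2 with FGF-AS siRNA and 808.2 with control siRNA). No brightest probe set of that list passed 2-fold, and a second measured one of BCKDHB gave -1.29 (FGF-AS siRNA 70.3, control siRNA 181.3). Of 7 tryptophan breakdown genes, 5 were above 0 with a median of 0.12. IDO1, which opens the indole ring, was dim and higher at 1.63 (FGF-AS siRNA 67.3, control siRNA 17.6), and KMO, a kynurenine hydroxylase, was dim and lower at -1.21 (FGF-AS siRNA 14.6, control siRNA 41.7). IDO1 reached the minimum with FGF-AS siRNA only and KMO with control siRNA only, so both passed through the array where they were high. Of 10 genes for histidine, proline, lysine and glycine, 6 were below 0 with a median of -0.32. Past 2-fold in that list were HAL (-1.29) and AMDHD1 (-1.05) of histidine breakdown and ALDH4A1 (-1.28) of proline breakdown, all lower and dim. These 3 of 10 stand beside 2.72% of all measured genes and 5.4% of those between the minima that were at least 2-fold lower, and the list's share was not tested. HAL was above the minimum with control siRNA only. Of the genes named in these lists, only IDO1, KMO, HAL, AMDHD1 and ALDH4A1 passed 2-fold on their brightest probe set.

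**Figure D3:**
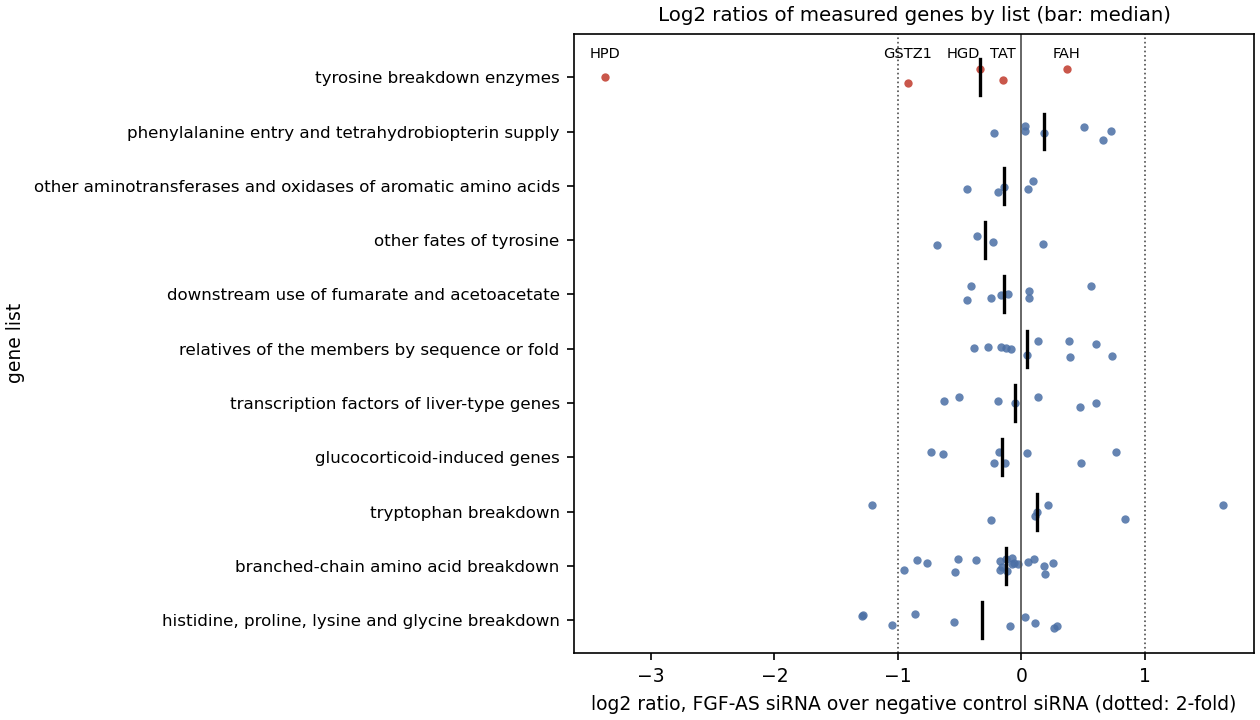
Log2 ratio, FGF-AS siRNA over negative control siRNA, of each measured gene in the tyrosine breakdown enzymes (red) and in 10 other lists (blue), 1 array per group, with black bars at list medians and dotted lines at 2-fold. HPD, chosen for its ratio, lies at -3.37, and the remaining 4 enzymes fall within the range of the other lists.

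Transcription factors of liver-type genes had 7 measured members, 3 above 0, with a median of -0.05 and none past 2-fold. CEBPA, a factor of the hepatocyte programme, was dim and the furthest from 0 at -0.63 (43.5 with FGF-AS siRNA and 70.4 with control siRNA). NR3C1, the glucocorticoid receptor, which induces TAT in liver, had a log2 ratio of -0.05 (FGF-AS siRNA 1027.9, control siRNA 1067.9). Genes that glucocorticoids induce had 3 of 8 above 0 and a median of -0.16. SGK1, a kinase gene of that list, was the furthest at 0.77 (FGF-AS siRNA 1013.7, control siRNA 593.6).

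The genomic neighbours of the enzyme genes were also read. In the order of gene starts in RefSeq, the nearest measured gene on each side of the 5 enzymes gave 10 neighbours with log2 ratios from -0.68 to 0.33, 5 of them below 0 and 0 past 2-fold, near the share over measured genes (2.72% lower and 2.05% higher). The nearest measured neighbours of HPD, on chromosome 12, were LINC01089, at 161.8 with FGF-AS siRNA and 172.8 with control siRNA, and PSMD9, a chaperone of proteasome assembly, at 1559.6 with FGF-AS siRNA and 1236.5 with control siRNA. Their ratios were -0.09 and 0.33 on these brightest probe sets. A second measured probe set gave 0.27 for LINC01089 and 0.74 for PSMD9. Those of GSTZ1, on chromosome 14, were POMT2 (0.17) and TMED8 (0.20), both above 0 on the brightest probe set. The other POMT2 probe set gave 0.27, and the other TMED8 probe sets gave -0.05 and -0.72. Those of FAH, on chromosome 15, were ZFAND6 (0.31) and ABHD17C (0.01). Those of TAT, on chromosome 16, were the dim CHST4 (-0.54) and PHLPP2 (-0.01), with 0.49 on a second measured PHLPP2 probe set. Not all of these genes are adjacent. The annotation holds 9 genes between FAH and ABHD17C, 3 between TAT and each of its neighbours, and 1 between HPD and PSMD9. CHST4 reached the minimum with control siRNA only. Beside HGD on chromosome 3 were NDUFB4 (-0.18) and RABL3, which had the lowest neighbour ratio at -0.68, while its other probe sets gave 0.12 and 0.04.

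**Figure D4:**
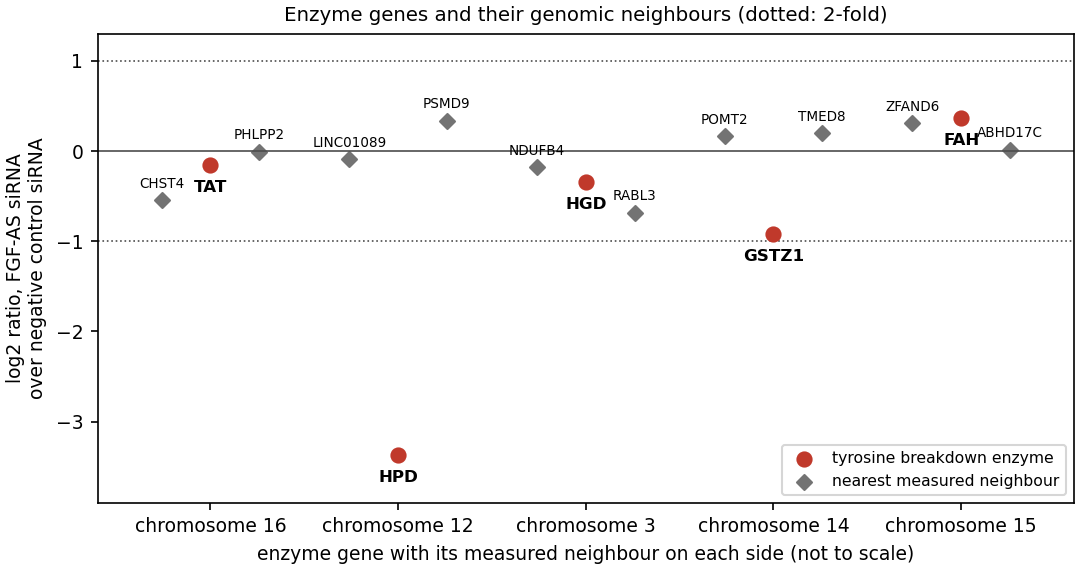
Log2 ratio, FGF-AS siRNA over negative control siRNA, of the 5 enzyme genes (circles) and of the nearest measured gene on each side (diamonds), grouped by chromosome, 1 array per group, with dotted lines at 2-fold. All 10 neighbours lie between -0.68 and 0.33, and HPD lies at -3.37.

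Markers of the cells were examined because HPD, HGD and TAT are best known from liver and kidney. Of 15 hepatocyte markers, 4 were measured, and all 15 summed to 7674.6 with FGF-AS siRNA and 7039 with control siRNA. CPS1, a urea cycle enzyme, made up nearly all of it (FGF-AS siRNA 7435.1, control siRNA 6859.4). Albumin (ALB) read 8.7 in FGF-AS siRNA cells and 12.6 in control siRNA cells, under the minimum. TF, which encodes transferrin, was furthest from 0 among the measured markers at -0.88 (FGF-AS siRNA 16.4, control siRNA 35.3). TF reached the minimum with control siRNA only, and its other probe sets, all under the minimum, gave log2 ratios from -1.07 to 0.74. Of 9 kidney proximal tubule markers, 3 were measured, and all 9 summed to 178 with FGF-AS siRNA and 173.7 with control siRNA. SLC5A2, a glucose transporter gene, was the furthest at 0.81 (FGF-AS siRNA 40.5, control siRNA 20.4). It reached the minimum with FGF-AS siRNA only. Hepatocyte markers other than CPS1 read at most 49.1 with FGF-AS siRNA (CYP2E1) and 35.3 with control siRNA (TF).

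Markers of the labelled lung carcinoma line were present in part, with 5 of 6 epithelial carcinoma markers measured, a median of 0.12 and none past 2-fold. The keratin gene KRT18 read 9327.2 with FGF-AS siRNA and 10152.5 with control siRNA, while the adhesion gene EPCAM was dim and the furthest from 0 at 0.32 (FGF-AS siRNA 43.8, control siRNA 34). The lung lineage factor NKX2-1 had a mean under the minimum (FGF-AS siRNA 11.8, control siRNA 24.9). Of 8 lung epithelium markers, 4 were measured, and all 8 summed to 744.1 with FGF-AS siRNA and 970.6 with control siRNA. HOPX made up most of both sums (FGF-AS siRNA 519.4, control siRNA 766.8, log2 ratio -0.56). It was the only lung marker past the stricter minimum. SFTPC, a surfactant gene, was dim and furthest from 0 at 1.65 (FGF-AS siRNA 59.1, control siRNA 14.7). It reached the minimum with FGF-AS siRNA only, and its other 4 probe sets, all under the minimum, gave log2 ratios from -0.98 to 0.10. Of 6 melanocyte markers, 2 were measured, and MITF, a transcription factor of that lineage, was the furthest from 0 at 0.30 (FGF-AS siRNA 383.2, control siRNA 311.1).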

How the data were processed

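RNA of 2 cultures was measured, 1 array per group. The authors deposited probe set intensity values on a linear scale. GCOS and MAS5 are named in the submitters' processing notes without version or role. Scaling between the arrays is unknown (not given in the sources used here). Detection calls were not used here, so dim signals cannot be told from background, and the number of arrays limits the precision.

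Of 54675 probe sets, 62 controls were left out. Symbols came from the platform annotation and were updated by gene identifier through RefSeq (GRCh38.p14). Of the 54613 others, 41091 had 1 symbol, 1801 several and 11721 none here. No probe set paired an enzyme with another symbol. The offset added before log2 (6.1) was set to the 25th percentile of signals. Within-gene SDs were pooled over probe sets, cover neither cultures nor hybridisations, and no test was possible. Calculations used Python 3.11.15, numpy 2.4.6 and pandas 2.3.3, were tested on simulated data, and figures used matplotlib 3.10.9. The simulation planted large changes in genes past the stricter minimum only. It does not cover small ratios of dim genes such as TAT and HGD.

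The enzymes, the lists and the rules were chosen with earlier results of these data known. Named genes were the 5 enzymes with all probe sets, NUDT6, HPDL, PSMD9, NR3C1 and IL4I1, the nearest measured neighbours, the 3 genes nearest HPD, and in each list up to 4 members past 2-fold or else the member furthest from 0. CBX5, ADAM33, ALB, CPS1, CYP2E1, KRT18 and NKX2-1 were chosen after their values were seen, and some listed genes are not reported here. Alternatives varied the offset, the scaling, the probe sets and the minimum.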

Additional observations from a re-analysis of the deposited data

How the results depend on the processing

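The log2 ratio of HPD ran from -3.47 to -3.08 over the 5 alternatives that could move it (offset and scaling) and passed 2-fold in each. That of GSTZ1 ran from -0.94 to -0.82 over the same 5 and passed 2-fold in none. Each has 1 probe set, so the other 4 alternatives, which choose probe sets or the minimum, return the same value by construction. TAT ran from -0.17 to -0.01 over 7, of which 5 moved it. It had no value at the stricter minimum or when _s_at and _x_at probe sets were left out, because its remaining signals were under the minimum, and HGD had none at the stricter minimum. HGD and FAH depended on the probe set. With the second brightest probe set, an alternative chosen after seeing the data, HGD gave -1.19 and FAH 1.10, and the enzymes at least 2-fold lower numbered 2 and those at least 2-fold higher 1. With the mean over measured probe sets FAH gave 0.73. Under the other alternatives these moved by less than the probe set SD, and no enzyme changed sign under any alternative run. A changed offset cannot change a sign, and the minimum and suffix settings gave the same value or none. Only scaling and the choice of probe set could change a sign. The HGD probe set 237029_at, under the minimum and higher with FGF-AS siRNA, was not among the alternatives. Median centring shifted all ratios by 0.06 and scaling to the trimmed mean by 0.04, as the control siRNA array was slightly brighter. No paired analysis was possible because each group holds 1 array and no result comes from a test. Dim signals limit TAT and HGD on both arrays, and HPD on the FGF-AS siRNA array.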
